A study of Mus musculus with 9 samples.

Results

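The 7 genes described here encode the core of MHC class II antigen presentation in the mouse. They were chosen by symbol, and the 7 rows of the count table whose Ensembl identifiers map to *H2-Aa*, *H2-Ab1*, *H2-Eb1*, *Cd74*, *Ciita*, *H2-DMa* and *H2-DMb1* were taken from the 35275 genes listed. RNA was sequenced from 9 mammary gland tumors of Brca1Co/Co;MMTV-Cre;p53+/- mice. These mice carry conditional *Brca1* alleles, a Cre driven by the mouse mammary tumor virus promoter, which is active mainly in mammary epithelium, and only 1 working copy of *p53*, and all groups share this genotype. Saline (3 tumors), i.v. TLZ (3 tumors) and NanoTLZ (3 tumors) were the groups compared. TLZ is Talazoparib, an inhibitor of the DNA repair enzyme PARP, given free, and NanoTLZ is the same drug in a nanoparticle. Both were given by vein at 0.33 mg/kg in each of 5 doses, 3 times a week. None of the 9 tumors received empty nanoparticles, so drug and carrier cannot be told apart in NanoTLZ. The age and strain of the mice are not given in the labels. Tumors are numbered 1 to 3 within a group, and the number pairs nothing between groups. The comparison asks how the class II genes stood after either form of the drug.

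Total counts ranged from 17538380 to 21194980 per tumor. The labelled tissue was checked by 7 mammary epithelial markers, whose summed level was between 3586 and 8375 CPM in every tumor. CPM is the count of a gene per library size, after TMM scaling. Saline tumor 3 stood apart from the other 8. It had 1849 CPM of the basal keratin *Krt5*, against at most 72.9 CPM elsewhere, and the highest summed level of 7 skeletal muscle genes (484 CPM). Results are therefore also given without it.

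MHC class II molecules are pairs of an alpha and a beta chain that carry peptides from endosomes to the cell surface and show them to CD4+ T cells. They are made mainly by dendritic cells, B cells and macrophages, while other cells can be brought to make them by interferon gamma. The invariant chain, encoded by *Cd74*, fills the groove until cathepsins cut it, and the H2-DM pair then exchanges its last fragment for a peptide. Transcription of these genes depends on the coactivator CIITA, which binds no DNA itself and is held at class II promoters by the RFX complex, CREB and NF-Y.

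The *H2* genes lie together on chromosome 17 of GRCm38. *H2-DMa* (ENSMUSG00000037649) spans 34119541 to 34139101, *H2-DMb1* (ENSMUSG00000079547) 34153072 to 34160230, *H2-Ab1* (ENSMUSG00000073421) 34257689 to 34269419, *H2-Aa* (ENSMUSG00000036594) 34282744 to 34287823 and *H2-Eb1* (ENSMUSG00000060586) 34305867 to 34316674. *Ciita* (ENSMUSG00000022504) lies on chromosome 16 from 10480059 to 10528418. *Cd74* is ENSMUSG00000024610. All 7 are protein-coding genes.

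Members of the family share promoter letters that the choice of genes did not use. In RefSeq promoter windows of GRCm38.p6, which run from 250 bases before to 50 bases after a start, 4 of the 7 genes and 8 of 12 class II genes were listed. An X box core, spelled NGNAAC with A or G as the first N and C or T as the other, was searched for on both strands, followed after 24 to 32 bases by ATTGG, the reversed CCAAT letters that NF-Y binds. The spacing was chosen after the sequences were seen. This arrangement was found in *H2-Aa*, *H2-Eb1*, *H2-DMb1*, *H2-Ob*, *H2-Oa* and *H2-Eb2*, and in neither window of *H2-DMa* nor that of *H2-DMb2*. Of all 32851 windows, 0.377% held it, whereas 35.8% held the X box core and 37.4% held ATTGG. The stretches of both classical chains that matched, and that of *H2-Ob*, whose level followed theirs across tumors, are shown with the X box core and ATTGG in capitals.
H2-Aa, chr17:34287859-34287913, minus strand: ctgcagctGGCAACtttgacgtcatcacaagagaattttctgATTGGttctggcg
H2-Eb1, chr17:34305767-34305820, plus strand: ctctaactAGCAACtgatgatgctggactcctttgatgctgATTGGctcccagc
H2-Ob, chr17:34238809-34238860, plus strand: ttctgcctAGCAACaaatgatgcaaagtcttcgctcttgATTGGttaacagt
The X box core begins 82 bases before the start in *H2-Aa*, 92 in *H2-Eb1* and 88 in *H2-Ob*. A match of letters describes the sequence and does not show that a factor binds there.

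All 7 genes were present in every tumor, with at least 56 counts, and all 7 passed the filter on low counts. Per length, as CPM divided by kilobases of merged exons (RPKM), *Cd74* was the highest at 1122 ± 669 (SD, n = 9), followed by *H2-Ab1* at 149.9 ± 89.4. *H2-Aa* (19.1 ± 11.3), *H2-DMa* (17.8 ± 10.04) and *H2-DMb1* (16.3 ± 8.47) came next. *H2-Eb1* (8.46 ± 4.64) and *Ciita* (6.53 ± 4.07) had the lowest means. These SDs describe the spread between tumors and do not compare genes, and the order of genes was not tested. With the longest transcript as the length, *H2-Ab1* had 318 and *H2-DMa* 30.6. Class II genes are highly polymorphic between strains, and reads were aligned to the C57BL/6J-based mm10 genome, so the order of levels among the chains is less certain than the order of tumors within a gene.

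*H2-Aa*, the I-A alpha chain, had 20.5, 91.5 and 9.54 CPM in saline tumors 1 to 3, 86.1, 35.6 and 59.2 in i.v. TLZ tumors 1 to 3, and 109, 116 and 125 in NanoTLZ tumors 1 to 3. *H2-Ab1*, the I-A beta chain, had 89.8, 546 and 57.1 CPM in saline, 525, 178 and 334 with i.v. TLZ, and 569, 476 and 691 after NanoTLZ. *H2-Eb1*, the I-E beta chain, had 3.20, 19.6 and 2.66 CPM in saline, 19.5, 9.02 and 20.9 with i.v. TLZ, and 24.4, 22.8 and 25.9 after NanoTLZ. Saline tumors 1 and 3 were low for each chain, and saline tumor 2 was at the level of the treated tumors. All 3 NanoTLZ tumors were above all saline tumors for *H2-Aa* and *H2-Eb1*, but NanoTLZ tumor 2 was below saline tumor 2 for *H2-Ab1*.

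*Cd74*, which lies on chromosome 18, had 614, 2540.2 and 258 CPM in saline, 2246, 850.3 and 1789.6 with i.v. TLZ, and 2689.6, 2225 and 3738 after NanoTLZ. Its groups overlapped, since saline tumor 2 exceeded NanoTLZ tumor 2 and all i.v. TLZ tumors. *H2-DMa*, the alpha chain of the peptide exchange factor, had 19.7, 82.3 and 14.5 CPM in saline, 74.7, 30.2 and 50.1 with i.v. TLZ, and 79.1, 83.4 and 117 after NanoTLZ. *H2-DMb1*, its beta chain, had 11.1, 39.6 and 5.73 CPM in saline, 31.4, 12.8 and 26.7 with i.v. TLZ, and 38.1, 37.2 and 44.8 after NanoTLZ. Both H2-DM genes were higher in every NanoTLZ tumor than in every i.v. TLZ tumor, and both overlapped with saline through saline tumor 2. *Ciita* had 46.3, 81.9 and 8.85 CPM in saline, 72.0, 16.3 and 57.2 with i.v. TLZ, and 79.1, 58.7 and 140 after NanoTLZ. The coactivator thus overlapped between all groups, and saline tumor 1 was nearer to the middle of the range for *Ciita* than for the chains.

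**Figure D1:**
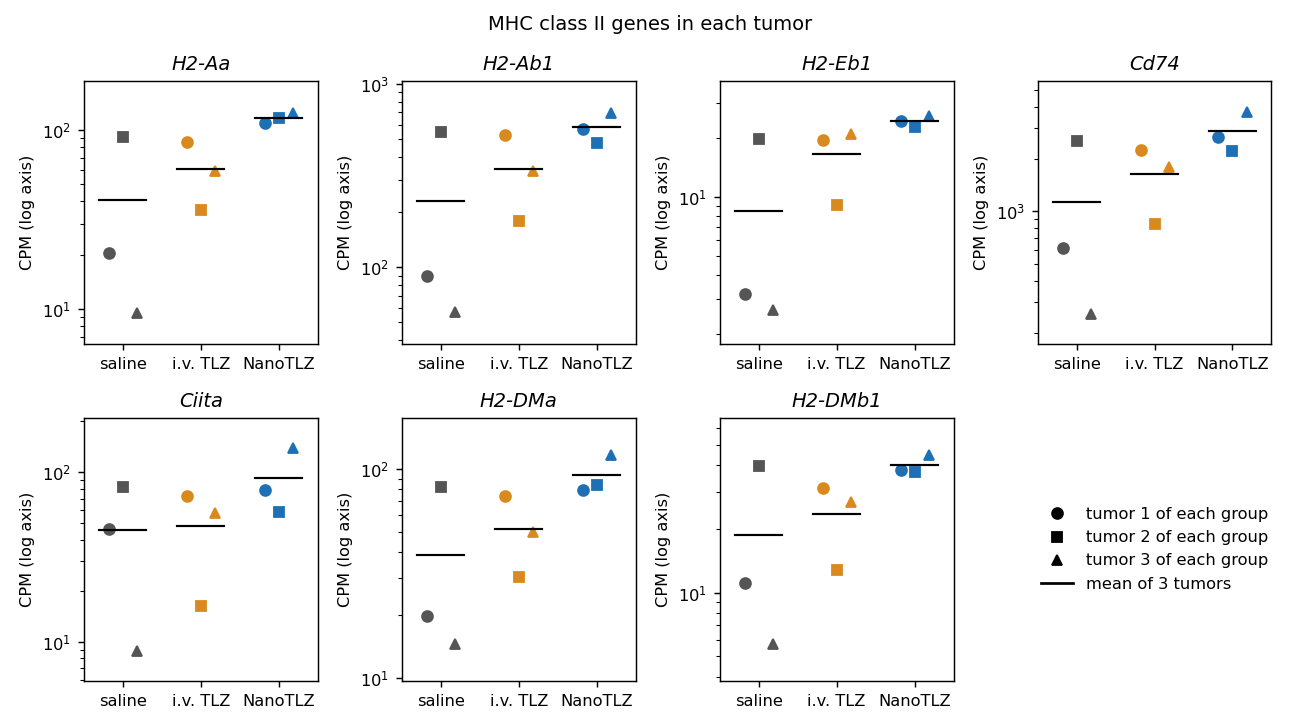
CPM of each of the 7 genes in each tumor on a log axis, with the 3 tumors of a group as separate symbols and their mean as a line. Saline tumor 3 is the lowest and NanoTLZ tumor 3 the highest for every gene, and saline tumor 2 lies among the treated tumors.

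Some of the reads could belong to neighbors. *H2-DMa* overlaps *Brd2*, a bromodomain gene on the opposite strand, which had 74925 counts over the 9 tumors against 10845 for *H2-DMa*. *Ciita* overlaps *Dexi* on the opposite strand, with 7369 counts against 10981. Because the strand setting of the counting is not given in the sources used here, reads from these pairs cannot be told apart where they overlap. *H2-DMb1* and *H2-DMb2* are near-identical copies in part, and 27.2% of the 50-base windows of the *H2-DMb1* transcript also occur in *H2-DMb2*. For the other 6 genes this share was 0%.

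After i.v. TLZ, the 7 genes had higher fitted means than in saline, by log2 fold changes between 0.09 (*Ciita*) and 0.95 (*H2-Eb1*), with a median of 0.52, but none changed by the test. The median of all 15821 tested genes was -0.03. The quasi-likelihood test of edgeR, adjusted by the Benjamini-Hochberg method, called 0 of the 7 genes at an adjusted p under 0.05, where it called 0% of all genes. At an unadjusted p under 0.05 there were also 0 of 7, against 4.91% of all genes that were higher. DESeq2 called 0 of 7 when fitted to all 9 tumors and 0 of 7 when fitted to the groups compared, where it called 1.12% and 0.534% of genes. A log2 fold change above 0 was found for 7 of 7 genes, against 47.6% of all genes, and above 1 for 0 of 7, against 8.94%. The groups did not overlap, with i.v. TLZ higher, for 0 of 7 genes (5.99% of all genes).

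*H2-Eb1* averaged 16.5 ± 6.50 CPM (SD, n = 3) after i.v. TLZ and 8.50 ± 9.65 in saline, a log2 fold change of 0.95 with a 95% interval from -0.60 to 2.51 (edgeR adjusted p = 0.634). *Cd74* averaged 1629 ± 712 CPM after i.v. TLZ and 1137.5 ± 1228 in saline, a log2 fold change of 0.52 with an interval from -1.09 to 2.13 (edgeR adjusted p = 0.828). *Ciita* averaged 48.5 ± 28.8 CPM after i.v. TLZ and 45.7 ± 36.5 in saline, a log2 fold change of 0.09 with an interval from -1.54 to 1.71 (edgeR adjusted p = 0.977). All 3 intervals run well to both sides of 0, so at this spread between tumors the direction was not resolved for these genes.

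After NanoTLZ, the fitted means of the same 7 genes were again higher than in saline, by log2 fold changes between 1.02 (*Ciita*) and 1.53 (*H2-Aa*), with a median of 1.33 against -0.09 for all genes. edgeR called 0 of 7 genes, where it called 0.00632% of all genes, which is 1 gene. At an unadjusted p under 0.05 it found 0 of 7, against 3.51% of all genes that were higher, and DESeq2 called 0 of 7 on all 9 tumors and 0 of 7 on the groups compared, against 0.712% and 1.05% of genes. A log2 fold change above 1 was found for 7 of 7 genes, against 7.75% of all genes, and above 0 for 7 of 7, against 43.9%. The groups did not overlap for 2 of 7 genes, *H2-Aa* and *H2-Eb1*, against 7.82% of all genes with NanoTLZ higher. The same 3 saline tumors served for both treatments, so the comparisons share their spread.

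*H2-Aa* averaged 117 ± 8.12 CPM after NanoTLZ and 40.5 ± 44.5 in saline, a log2 fold change of 1.53 with a standard error of 0.69 and an interval from -0.01 to 3.06 (edgeR adjusted p = 0.559). *H2-Eb1* averaged 24.3 ± 1.56 CPM after NanoTLZ, a log2 fold change of 1.52 from saline (edgeR adjusted p = 0.563). *H2-DMa* averaged 93.3 ± 20.95 CPM after NanoTLZ and 38.8 ± 37.7 in saline, a log2 fold change of 1.26 (edgeR adjusted p = 0.567). These were the smallest p-values of the 7 genes. *Cd74* averaged 2884 ± 775 CPM after NanoTLZ, a log2 fold change of 1.34 (adjusted p = 0.589), and *Ciita* 92.5 ± 42.2 CPM, a log2 fold change of 1.02 (adjusted p = 0.663).

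Between NanoTLZ and i.v. TLZ, at the same dose and schedule, the 7 genes had log2 fold changes between 0.56 (*H2-Eb1*) and 0.95 (*H2-Aa*), with a median of 0.82 against -0.04 for all genes. edgeR called 0 of 7 (0% of all genes) and found 0 of 7 at an unadjusted p under 0.05, against 0.449% of all genes that were higher, and all 7 adjusted p-values were 0.9999. DESeq2 called 0 of 7 both on all 9 tumors and on the groups compared, against 0.0119% and 0.127% of genes. For 4 of 7 genes, *H2-Aa*, *H2-Eb1*, *H2-DMa* and *H2-DMb1*, all NanoTLZ tumors lay above all i.v. TLZ tumors, against 3.2% of all genes. A log2 fold change above 0 was found for 7 of 7 genes (45.6% of all genes) and above 1 for 0 of 7 (2.62%). The interval of the difference was -0.56 to 2.47 for *H2-Aa*, -0.79 to 2.44 for *Cd74* and -0.70 to 2.57 for *Ciita*, so each interval included 0 and also reached above 2. When the mean of both treated groups was set against saline, the median was 0.93, and edgeR called 0 of 7, where it called 0.019% of all genes, and found 0 of 7 at an unadjusted p under 0.05 (4.8% of all genes higher). DESeq2 called 0 of 7 (1.53% of genes). The log2 fold change was above 0 for 7 of 7 genes (46% of all genes) and above 1 for 2 of 7, *H2-Aa* and *H2-Eb1* (7.59%). In that comparison 0 of 7 genes were above all saline tumors in all 6 treated tumors, against 2.81% of genes.

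**Figure D2:**
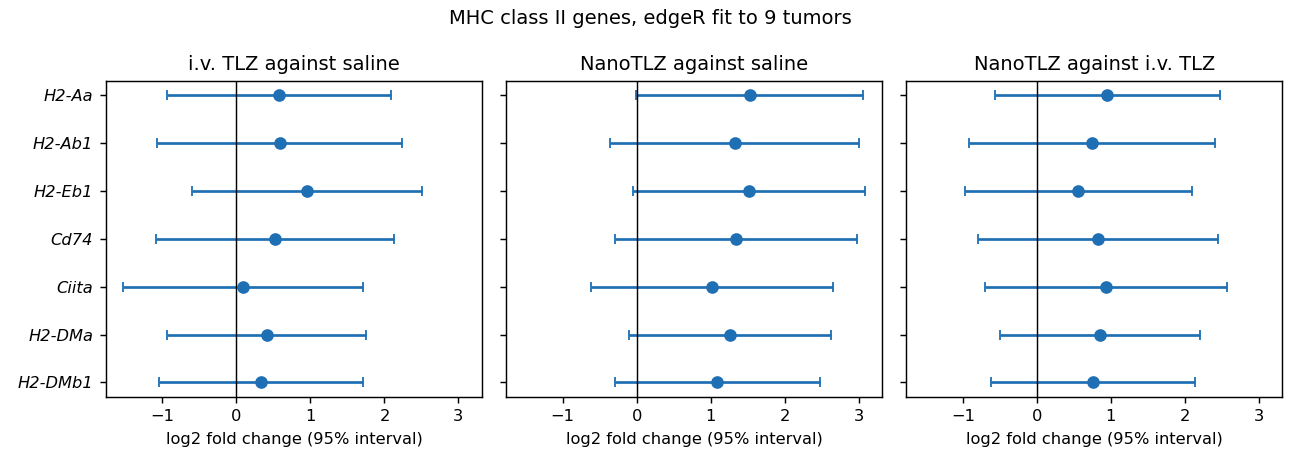
Log2 fold change of each gene with its 95% interval from the edgeR fit, in a panel for each comparison, with 0 as a vertical line. All points lie above 0 and all intervals include 0, and *H2-Aa* after NanoTLZ comes nearest to excluding it with a lower bound of -0.01.

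The size of these differences depended on single saline tumors. Without saline tumor 2, the median of the 7 genes was 1.90 after i.v. TLZ and 2.72 after NanoTLZ. Without saline tumor 3 it was 0.048 and 0.89, and the i.v. TLZ differences of *Ciita* (-0.40) and *H2-DMb1* (-0.10) were below 0. In no case did edgeR call any of the 7, and the smallest adjusted p was 0.0775, for *H2-Eb1* with both treatments against saline, without saline tumor 2. The spread itself differed between groups. The median SD of log2 CPM over the 7 genes was 1.65 in saline, 0.68 with i.v. TLZ and 0.27 after NanoTLZ, whereas over all genes it was 0.59, 0.47 and 0.30.

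The 7 genes ranked the tumors in nearly the same order. Saline tumor 3 was lowest and NanoTLZ tumor 3 highest for all 7, and saline tumor 1 and i.v. TLZ tumor 2 took the next low places. The highest tumor had 7.80 times the level of the lowest for *H2-DMb1* and 15.8 times for *Ciita*, with a median of 12.1 over the 7 genes and of 3.29 over 15353 genes with no tumor at 0. Across the 9 tumors, the 21 pairs of genes had Pearson correlations of log2 CPM from 0.776 to 0.993 and Spearman correlations from 0.800 to 1. In an exact two-sided permutation test adjusted over the 21 pairs, all 21 were past 0.05, with the largest adjusted p at 0.0247 (Pearson) and 0.0138 (Spearman). The share of other gene pairs that would pass was not computed, so this count is not shown to be particular to the 7 genes. The lowest Pearson correlation was 0.740 without the 2 tumors farthest from the median, and the median was 0.971 with the group means removed. Without saline tumor 3, 18 of 21 pairs were past 0.05, and the lowest correlation was 0.571.

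*Ciita* followed the others less closely. Its 6 pairs had Pearson correlations from 0.776 to 0.911, while the 15 pairs among the other genes had correlations from 0.956 to 0.993. In CPM, *H2-Ab1* was 1.94 to 10.9 times as high as *Ciita*, a 5.61-fold range, but *Cd74* was 4.28 to 6.84 times as high as *H2-Ab1*, a 1.599-fold range. *H2-DMb1* was 0.381 to 0.564 of *H2-DMa*, so the chains of this dimer kept their ratio within a 1.48-fold range, while *H2-DMa* ranged over 8.09-fold and *H2-DMb1* over 7.80-fold. The low end of the *Ciita* ratio was saline tumor 1, in which *Ciita* was at 46.3 CPM with *H2-Ab1* at 89.8.

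Other class II chains had similar differences. Of 5 in the table, 4 were tested, and edgeR called 0 in any comparison, with 2 (*H2-Oa* and *H2-DMb2*) higher after NanoTLZ at an unadjusted p under 0.05. *H2-Oa* and *H2-Ob* encode the dimer that restrains H2-DM. *H2-Ob* had 3.09, 15.8 and 1.19 CPM in saline, 12.8, 3.83 and 8.71 with i.v. TLZ and 16.3, 10.8 and 26.9 after NanoTLZ, so its groups overlapped. *H2-Oa* had 1 to 9 counts in saline and 15 to 30 after NanoTLZ, a log2 fold change of 2.28 (edgeR adjusted p = 0.552). For *H2-DMb2*, the other H2-DM beta chain, the log2 fold change was 1.39 with NanoTLZ (edgeR adjusted p = 0.552), and its level was 0.536 to 0.796 of *H2-DMb1*. *H2-Ea-ps*, the I-E alpha chain gene that is listed as a polymorphic pseudogene in the annotation, had between 1.74 and 20.4 CPM and was 0.443 to 0.788 of *H2-Eb1*. In C57BL/6 mice, the source of the reference, this gene is not transcribed because of a deletion in its promoter. *H2-Eb2* had 0 to 5 counts and was not tested.

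Of 7 genes that process antigen in endosomes, 0 were called, and their median log2 fold change was 0.15 with i.v. TLZ and 0.68 after NanoTLZ. *Ctsl*, a cathepsin that cuts the invariant chain in thymic epithelium, had 303, 355 and 120 CPM in saline, 784, 365 and 561 with i.v. TLZ, and 634, 693 and 561 after NanoTLZ. The saline tumors all lay below the treated tumors, an order found for 1 of the 7 processing genes and for 2.81% of all genes. The log2 fold changes of *Ctsl* were 1.14 with i.v. TLZ (edgeR adjusted p = 0.444) and 1.28 with NanoTLZ (edgeR adjusted p = 0.552), and it was the only gene of the 7 with an unadjusted p under 0.05 in either. *Ctss*, the cathepsin that does so in dendritic cells and B cells, had log2 fold changes of -0.01 and 0.87, and *Ifi30*, a thiol reductase of lysosomes, of 0.17 and 0.68. The other 4, *Ctsb*, *Ctsd*, *Ctsh* and *Lgmn*, had log2 fold changes between -0.05 and 0.33 after i.v. TLZ and between -0.08 and 0.70 after NanoTLZ.

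Of 3 genes that set the surface turnover of class II, 0 were called. *March8*, a ubiquitin ligase, had less RNA in every i.v. TLZ tumor (71.0 to 85.4 CPM) than in every saline tumor (106 to 130.1 CPM), a log2 fold change of -0.64 (edgeR adjusted p = 0.437). The NanoTLZ tumors (94.7 to 105.3 CPM) also lay below the saline tumors, by a log2 fold change of -0.25 (edgeR adjusted p = 0.722). Such an order without overlap was found for 5.2% of all genes with i.v. TLZ and for 8.13% with NanoTLZ. *March1*, the ligase that removes class II in dendritic cells and B cells, and *Cd83*, which opposes it, had log2 fold changes of -0.28 and 0.23 with i.v. TLZ and of 0.57 and 0.88 with NanoTLZ.

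Promoter factors and genes of the interferon gamma pathway had no common direction. Of 16 in the table, 15 were tested and 0 were called, 6 of 15 had a log2 fold change above 0 after i.v. TLZ and 8 of 15 after NanoTLZ, and the median log2 fold change was -0.11 with i.v. TLZ and 0.10 after NanoTLZ. *Rfx5*, the RFX subunit, had -0.63 and -0.53, and *Nfyb*, a subunit of NF-Y, -0.56 and -0.93, both with their highest value in saline tumor 3 (34.8 and 47.5 CPM). *Irf1*, a transcription factor induced by interferon gamma, had 0.43 and 0.64. *Irf2* had -0.75 after i.v. TLZ (edgeR adjusted p = 0.443). Its level was 42.7 to 57.9 CPM in saline, 26.9 to 33.4 with i.v. TLZ and 29.2 to 42.4 after NanoTLZ. Both treated groups thus lay below saline, an order found for 5.2% of all genes with i.v. TLZ and 8.13% with NanoTLZ. *Nfyb* was also lower in every NanoTLZ tumor (11.5 to 16.03 CPM) than in every saline tumor (16.16 to 47.5 CPM). In the other direction, *Rfxap* was higher in every i.v. TLZ tumor (33.3 to 40.6 CPM) than in every saline tumor (21.8 to 27.1 CPM), an order found for 5.99% of all genes. *Ifng* itself had 0 to 20 counts and was not tested. The genes *Rfxap*, *Rfxank*, *Nfya*, *Nfyc*, *Creb1*, *Ifngr1*, *Ifngr2*, *Jak1*, *Jak2* and *Socs1*, had log2 fold changes between -0.41 and 0.52 in both comparisons with saline.

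**Figure D3:**
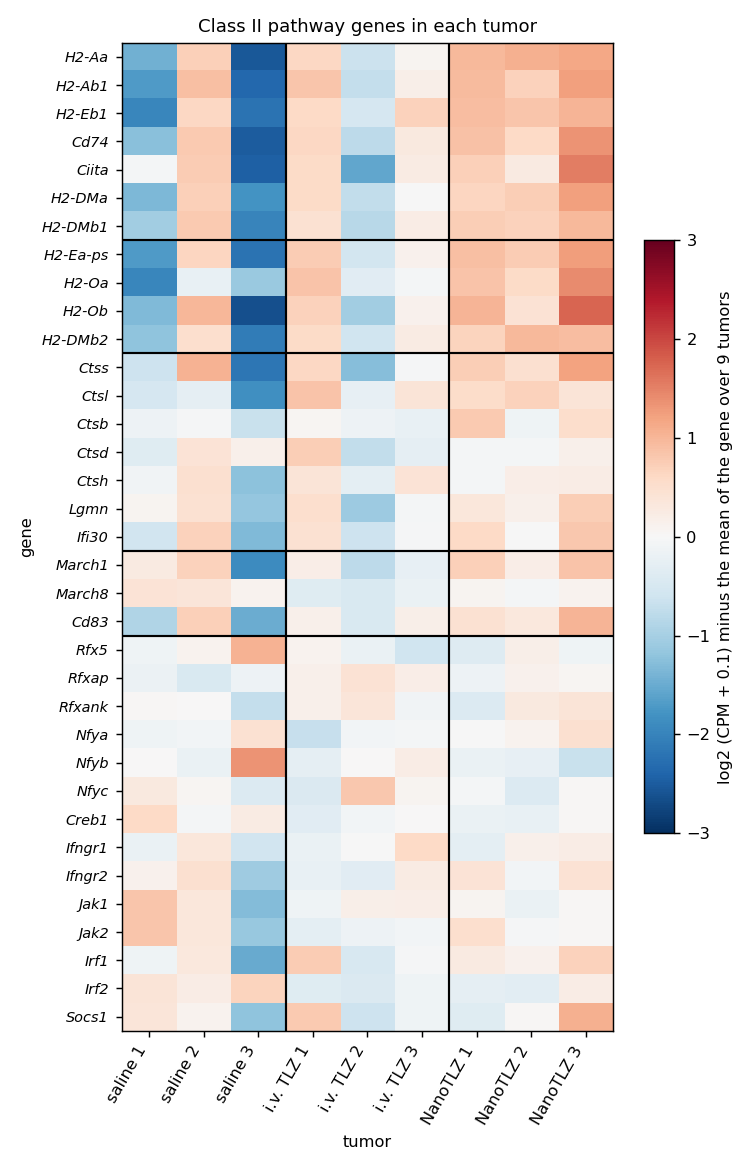
Log2 of CPM plus 0.1 in each tumor, less the mean of the gene over 9 tumors, for 35 class II pathway genes, in blocks for the 7 core genes, other chains, endosomal processing, surface turnover, and promoter factors with the interferon gamma pathway. Saline tumors 1 and 3 and i.v. TLZ tumor 2 are blue for nearly all chains, and the lowest block shows no such common order.

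Markers of macrophages, dendritic cells and all leukocytes were set beside *Cd74*. In bulk RNA, fewer cells of a type and less RNA per cell cannot be told apart. The summed level of 9 macrophage markers was 482 to 1809 CPM in saline, 769 to 1699.6 with i.v. TLZ and 1689 to 2404 after NanoTLZ, and its correlation with *Cd74* over the 9 tumors was 0.966 (Pearson, exact permutation p = 5.51e-05, adjusted over 10 lists p = 0.000551; Spearman 0.850, adjusted p = 0.0202). It was 0.979 without the 2 tumors farthest from the median and 0.940 with the group means removed. The largest macrophage markers averaged 361 to 499 CPM each after NanoTLZ, and the others at most 64.0 CPM. *Mrc1* (0.565) and *Mertk* (0.746) followed the mean of the 7 genes less closely than the other macrophage markers (0.908 to 0.990). With the group means removed, *Mrc1* had 0.184 and *Mertk* 0.484. Of 8 dendritic cell markers the sum was 17.0 to 76.0 CPM in saline, 66.9 to 101.1 with i.v. TLZ and 83.9 to 121 after NanoTLZ. Its correlation with *Cd74* was 0.928 (exact permutation, adjusted p = 0.00256; Spearman 0.883, adjusted p = 0.0154), but 0.601 without the 2 farthest tumors. *Itgax* made up 40.3% to 77.2% of this sum. The dendritic cell genes *Xcr1* (0.155) and *Cd209a* (-0.088) hardly followed the mean of the 7 genes, at 1 to 17 and 0 to 38 counts. All other markers of this list had correlations with that mean from 0.641 to 0.919. For 4 pan-leukocyte genes (109 to 576 CPM) the correlation of the sum with *Cd74* was 0.959 (exact permutation, adjusted p = 0.00134; Spearman 0.933, adjusted p = 0.0075).

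B cells, which also make class II, left little RNA. The 8 B cell markers summed to 1.14 to 17.3 CPM, and 3 of the 8 could be tested. The correlation of their sum with *Cd74* was 0.238 (exact permutation, adjusted p = 0.596; Spearman 0.317, adjusted p = 0.513). *Cd79b* made up 4.76% to 88.8% of this sum, and 4.36 of 4.91 CPM in saline tumor 3. With the mean of the 7 genes, the 3 tested markers had correlations of 0.672 (*Pax5*), 0.381 (*Cd79a*) and 0.013 (*Cd79b*). For 7 T cell markers (2.73 to 36.2 CPM) the correlation of the sum with *Cd74* was 0.625 (exact permutation, adjusted p = 0.144) and 0.938 without the 2 farthest tumors. The Spearman correlation of this sum was 0.817 (exact permutation, adjusted p = 0.0269). *Cd4* made up 17.0% to 76.6% of the sum, and 9.18 of 11.97 CPM in saline tumor 3. With the mean of the 7 genes, *Cd4* had a correlation of 0.252, *Trac* 0.411 and the other T cell markers 0.741 to 0.949. The sums of follicle and venule genes (1.84 to 36.6 CPM), plasma cell genes (321 to 1412 CPM), epithelial genes (3586 to 8375 CPM), muscle genes (3.61 to 484 CPM) and adipocyte genes (4.43 to 47.6 CPM) had Pearson correlations of 0.760, -0.242, -0.584, -0.462 and -0.206, all with an adjusted p above 0.05 for Pearson and Spearman correlations (exact permutation). Without the 2 farthest tumors the correlation of the follicle and venule genes was 0.941. Of their sum, *Cxcl13* made up 2.5% to 90.4%, and *Glycam1* was 28.4 of 31.2 CPM in saline tumor 1. The 5 tested genes of this list had correlations with the mean of the 7 genes from -0.345 (*Cxcr5*) to 0.969 (*Cxcl13*), with *Glycam1* at 0.366. The plasma cell sum was 94.6% to 99.96% *Sdc1*, which epithelium also makes, and *Jchain* (0.725) and *Mzb1* (0.488) had positive correlations with the mean of the 7 genes while *Sdc1* did not (-0.260). The muscle genes had lower values in treated tumors, with 5 of 6 tested genes not overlapping with saline after NanoTLZ, against 8.13% of all genes. No marker gene of any list was called by edgeR. DESeq2 fitted to all 9 tumors called 5 of 6 muscle genes (*Acta1*, *Atp2a1*, *Ckm*, *Pvalb* and *Tnnt3*) lower in both treated groups, and 1 B cell gene, *Cd79a*, higher after NanoTLZ. Fitted to the groups compared, it called the same 5 muscle genes and 1 plasma cell gene, *Jchain*, higher after NanoTLZ. The part of these cells in the class II differences was not tested.

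**Figure D4:**
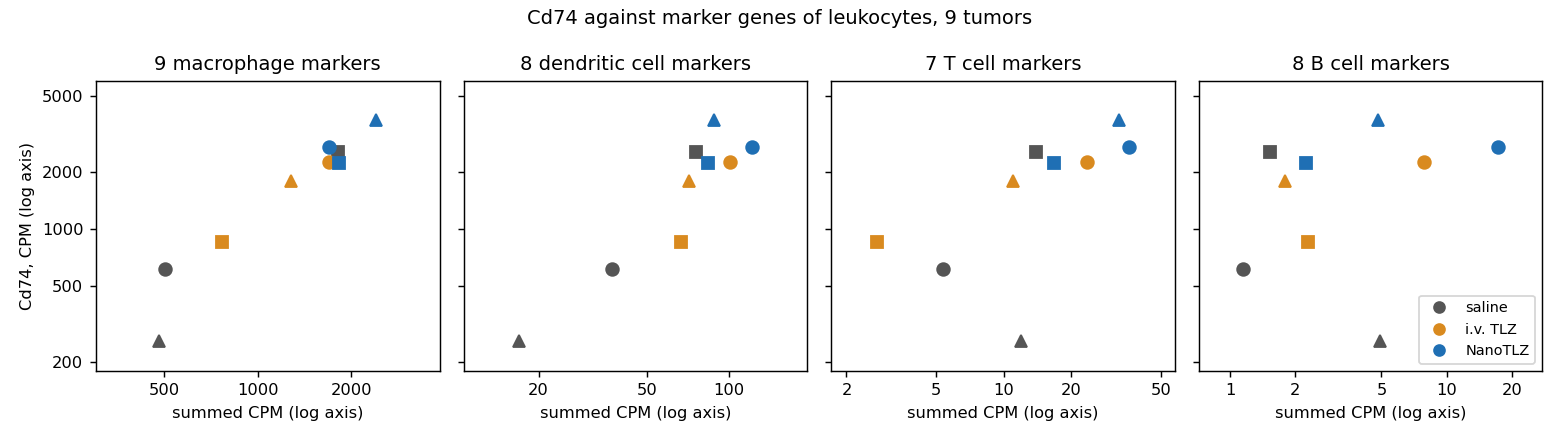
*Cd74* against the summed CPM of macrophage, dendritic cell, T cell and B cell markers in the 9 tumors, all on log axes, colored by group, with circles, squares and triangles for tumors 1, 2 and 3. The points rise together for macrophage markers (Pearson correlation 0.966) and scatter for B cell markers (0.238). In saline tumor 3, *Cd79b* makes up 4.36 of the 4.91 CPM of B cell markers.

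Relative to *Ptprc*, which encodes CD45 of all leukocytes, *Cd74* in CPM was 9.56, 29.4 and 18.8 times as high in saline tumors 1 to 3, 34.0, 32.8 and 41.2 times with i.v. TLZ and 35.1, 42.9 and 40.8 times after NanoTLZ. In this ratio the 3 saline tumors lay below the 6 treated tumors. The same held for 5 of the 7 genes (*H2-Aa*, *H2-Ab1*, *H2-Eb1*, *Cd74* and *H2-DMb1*) and for 0.898% of all genes. The ratios of *Ciita* (0.643 to 0.948 in saline, 0.631 to 1.32 with i.v. TLZ and 1.03 to 1.52 after NanoTLZ) and *H2-DMa* overlapped. The order for *Cd74* depended on *Ptprc* as the base. Relative to the summed 4 pan-leukocyte genes, saline tumor 2 (*Cd74* 2540 CPM, sum 455 CPM) lay above i.v. TLZ tumor 1 (2246 and 418 CPM). Relative to *Csf1r*, the receptor that macrophages need, *Cd74* was 5.29, 7.76 and 3.16 times as high in saline, 6.06, 6.21 and 6.84 times with i.v. TLZ and 7.72, 7.08 and 8.86 times after NanoTLZ. With *Csf1r* as the base the groups overlapped, and 0 of the 7 genes were above saline in all treated tumors, against 0.221% of all genes. The counts of genes that did not overlap in these ratios, and *Csf1r* as a base, were chosen after the values were seen.

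The genes most like the 7 across the 9 tumors included other class II chains and genes of leukocytes. Likeness was the Pearson correlation of log2 CPM with the mean of the 7 centred genes, and it is a description over tumors that share their libraries. Of 15814 genes outside the 7, the 10 most similar were *Il10ra* (0.997), the alpha chain of the interleukin 10 receptor, *Hcls1* (0.992), *Csf1r* (0.990), *H2-Ob* (0.990), *Fermt3* (0.989), *Rinl* (0.989), *Igsf6* (0.989), *H2-DMb2* (0.988), *Ppm1m* (0.987) and *Pirb* (0.987), an inhibitory receptor of myeloid cells. *Il10ra* ranged from 12.02 to 72.5 CPM and *Csf1r* from 81.7 to 422 CPM. A correlation above 0.9 was found for 277 genes (1.75%). Within the 7, the correlation with this mean was highest for *Cd74* (0.998) and lowest for *Ciita* (0.903), so that *Ciita* ranked 282 of all genes.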

How the data were processed

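RNA from 9 tumors was sequenced, and the values deposited by the authors are raw counts of reads on each gene, made by Novogene and not normalized. Per the submitters' processing notes, TopHat2, DESeq2 and the mm10 build were used. The counting program, annotation and strand setting are not given in the sources used here. Symbols came from GENCODE M21, which matched 34490 of 35275 identifiers. The 7 genes, the lists and the tests were chosen with earlier results of these data known. The named genes were the 7, the genes of the pathway lists except items not reported here, up to 3 genes of a marker list, and the 10 genes most similar to the 7.

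Genes were filtered with filterByExpr (minimum count 10, minimum total 15), scaled by TMM and fitted to all 9 tumors with edgeR 4.0.16 under R 4.3.3, with 1 coefficient per group. P-values were adjusted over 15821 genes. The tumors are separate samples by their labels, with no batch given. Log2 CPM for correlations used a prior count of 2. Alternatives were DESeq2 1.42.0, fits to the groups compared, RLE and upper quartile scaling, other filters, and each tumor left out. Promoters came from RefSeq. The fit was tested on simulated data. Python 3.11.15 and scipy 1.17.1 were also used.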

Additional observations from a re-analysis of the deposited data

How the results depend on the processing

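The 0 calls among the 7 genes were the same under DESeq2, fits to the groups compared, RLE and upper quartile scaling, no filter, at least 10 counts in every tumor, and each of the 9 tumors left out. Fitting to the groups compared was not run for the mean of both treatments, which already uses all 9 tumors. Apart from leaving out tumors, these alternatives gave a median log2 fold change of 0.51 to 0.54 for i.v. TLZ and 1.33 to 1.36 for NanoTLZ against saline. With each tumor left out, the median ranged from 0.048 to 1.90 for i.v. TLZ, from 0.89 to 2.72 for NanoTLZ and from 0.47 to 2.31 for both against saline, each lowest without saline tumor 3 and highest without saline tumor 2, and from 0.52 to 1.18 between treatments (lowest without i.v. TLZ tumor 2, highest without i.v. TLZ tumor 1). Against saline, i.v. TLZ gave *Ciita* -0.40 without saline tumor 3, -0.31 without i.v. TLZ tumor 1 and -0.05 without i.v. TLZ tumor 3, and *H2-DMb1* -0.10 without saline tumor 3, in place of 0.09 and 0.33, with highest values of 0.81 and 1.49 without saline tumor 2. The number of gene pairs past 0.05 ranged from 18 to 21 and was lowest without saline tumor 3. It was 21 with a prior count of 0.5 and with group means removed. With the longest transcript as length, *H2-Ab1* had 318 RPKM in place of 149.9 and *H2-DMa* 30.6 in place of 17.8. No paired analysis was possible because replicate numbers were assigned within each group and link no tumors across groups. Every core gene had at least 56 counts in every tumor.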
